A study of Homo sapiens with 12 samples.

Results

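K562 cells come from a person with chronic myeloid leukaemia, keep features of the red cell lineage, and carry a mutant allele of ASXL1. RNA sequencing of total RNA was compared between 3 K562 clones whose mutant ASXL1 allele had been knocked out with CRISPR/Cas9 and 2 K562 pools made with the SCR control guide, which left mutant ASXL1 in place. A gene was included when at least 2 of these 5 libraries held 1 FPKM or more. FPKM is a transcript level, fragments counted per length of transcript and per depth of library. The rule kept 13977 of 58233 listed genes, of which 11223 are protein coding. Of the genes kept, 12269 reached 1 FPKM in all 5 libraries and 633 in exactly 2, where the median gene averaged 0.93 FPKM. A further 1101 genes reached it in exactly 1 library and stayed outside, with a median of 0.617 FPKM. Among the genes kept, 332 reached 1 FPKM in knockout clones alone and 194 in the SCR pools alone, so they were kept through the group where they were higher. For such genes the p given is that of a fit with no filter on level (27260 genes).

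All groups share the K562 background, and 3 parental K562 clones, also with the mutant allele intact, were used as a further control. The knockout libraries came from clones and the SCR libraries from pools, and the 2 groups stand in different deposited tables. Clone against pool, the guide, the table and the loss of the mutant allele therefore cannot be told apart in this comparison, while the parental clones share their table and their clonal origin with the knockout clones. The labels do not say whether the clones or pools were cultured separately, so every p-value measures only the spread between these libraries. In bulk RNA, fewer cells of a type and less RNA per cell cannot be told apart.

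ASXL1 is a chromatin scaffold that binds and activates the deubiquitinase BAP1. Together they form the PR-DUB complex, which removes ubiquitin from histone H2A and works against the ubiquitin ligase of Polycomb repressive complex 1. FOXK1 and FOXK2 are forkhead transcription factors that bring BAP1 to chromatin, HCFC1 and OGT are a scaffold and a sugar transferase of the same assembly, and KDM1B, MBD5 and MBD6 are further partners. Truncating ASXL1 mutations are common in myeloid neoplasms.

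The deposited columns name the knockout clones with the number 591, which the labels do not explain. Codon 591 of the main ASXL1 transcript (ENST00000375687.9, 1541 codons) lies in exon 13 of 13 on chromosome 20, at 32434483 to 32434485 of GRCh38 on the plus strand. It is given here with 30 bases on each side in the reference sequence, chr20:32434453-32434515, because the name of the clones may refer to it. The capitals mark the codon. The guide and the edited allele are not given in the sources used here.
ASXL1 codon 591: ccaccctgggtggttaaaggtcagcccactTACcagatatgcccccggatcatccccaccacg

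The targeted transcript was lower in the knockout clones. ASXL1 (ENSG00000171456, chromosome 20, 32358330 to 32439319) stood at 32.0, 26.9 and 29.2 FPKM in the mutant ASXL1 knockout clones, against 43.1 and 58.1 FPKM in the SCR pools. The parental clones held 49.7, 58.5 and 39.8 FPKM, so every knockout clone lay below all 5 control libraries. The log2 fold change of knockout over SCR was -0.75 (SE 0.14, limma adjusted p = 0.013), and SCR against parental differed by 0.04 (adjusted p = 0.915). Since CRISPR edits can spare the RNA, this level is only a partial check of the label.

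Of ASXL1 and its partners, 5 of 11 tested genes fell and 1 rose, and 2 fell and 1 rose within GC deciles, that is, after scaling the libraries separately in each decile of genes by GC content. The 5 falls include a member that is not described here. Over all tested genes 18.7% fell and 10.4% rose, and 11.8% and 12.7% within GC deciles. Leaving out knockout clone 1, knockout clone 3, SCR pool 1 or SCR pool 2, each in turn, left 2 falls. Those fits also called fewer falls over all tested genes. KDM1B, a histone demethylase, was at 18.4, 16.0 and 17.1 FPKM in the knockout clones and at 10.7 and 11.99 FPKM in the SCR pools (log2 fold change 0.56, adjusted p = 0.00909), with 11.7, 12.6 and 12.6 FPKM in the parental clones. FOXK1 fell to 4.59, 4.63 and 4.85 FPKM in the knockout clones, against 6.24 and 6.26 FPKM in the SCR pools (log2 fold change -0.35, adjusted p = 0.031). The control mattered for HCFC1: it held 32.7, 33.6 and 32.3 FPKM in the knockout clones, 44.2 and 45.1 FPKM in the SCR pools, and 31.5, 32.2 and 31.6 FPKM in the parental clones. It fell against SCR (log2 fold change -0.43, adjusted p = 0.00433), its difference from the parental clones was 0.05 (adjusted p = 0.484), and SCR exceeded parental by 0.48 (adjusted p = 0.00469). Without SCR pool 1 the call of KDM1B was lost (adjusted p = 0.0557). BAP1 fell by 0.25 on the log2 scale against SCR (adjusted p = 0.0243), with 30.3, 32.6 and 31.1 FPKM in the knockout clones, 37.0 and 37.8 FPKM in the SCR pools, and 32.5 to 35.0 FPKM in the parental clones. The log2 fold changes of the ASXL1 paralogue ASXL2 (0.15, adjusted p = 0.177), OGT (0.18, adjusted p = 0.151), FOXK2 (-0.10, adjusted p = 0.244), MBD5 (0.24, adjusted p = 0.525) and MBD6 (0.01, adjusted p = 0.929) did not pass. The third family member, ASXL3, was at 0.01 FPKM in knockout clone 2 and listed at 0 in the other libraries. OGT passed without knockout clone 2 (0.25, adjusted p = 0.0454). The calls of BAP1 and FOXK1 were weak. With scaling within GC deciles their adjusted p was 0.34 and 0.107. BAP1 was lost without knockout clone 1 (adjusted p = 0.0747), knockout clone 3 (0.0629), SCR pool 1 (0.0999) or SCR pool 2 (0.129), and FOXK1 without any 1 of the 5 libraries (0.0627 to 0.134).

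All 12 markers of erythroid and megakaryocyte identity examined were at 1 FPKM or more in each of the 5 libraries. Of 7 lymphoid markers, 3 reached 1 FPKM in all 5 and MS4A1 stayed under 0.1 FPKM, and of 9 markers of adherent cells, EPCAM, KRT8 and KRT18 did and COL3A1 and CDH5 stayed under 0.1 FPKM. The lymphoid markers summed to 89.0 to 92.3 FPKM in the knockout clones, 60.1 to 63.6 in the SCR pools and 78.6 to 110.2 in the parental clones, and their part in the results was not tested. Summed FPKM were 824692 to 839261 in the knockout clones, 917281 to 943324 in the SCR pools and 899097 to 961495 in the parental clones. All genes listed on the mitochondrial genome, RNA genes included, made up 10.66% to 11.04% of that sum in the knockout clones, 13.08% to 14.22% in the SCR pools and 13.28% to 15.05% in the parental clones. Across the tested genes, Pearson's r of log2 levels was 0.983 to 0.984 between knockout clones, 0.983 between the SCR pools and 0.966 to 0.972 between a knockout clone and an SCR pool.

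The knockout clones differed from the SCR pools over much of the transcriptome, mostly by small amounts. At an adjusted p under 0.05, 4072 genes were called, or 29.1% of those tested. Of these, 1459 were higher in the knockout clones (10.4% of tested genes) and 2613 lower (18.7%), and in all 4072 the groups did not overlap. Only 187 rose and 164 fell at least 2-fold. The share of calls that were higher depended on how libraries were scaled: it was 35.8% with the deposited values, 50.5% with median-ratio scaling, 51.8% with that scaling within GC deciles and 54.8% with the per-library factor undone. Whatever their p-value, the groups did not overlap in 59.2% of tested genes, with the knockout clones higher in 23% and lower in 36.2%. Over all tested genes the median log2 fold change was -0.07 (0.01 with the per-library factor undone), with quartiles of -0.28 and 0.15. Leaving out 1 library gave 2562 calls without knockout clone 1, 3897 without clone 2, 2714 without clone 3, 1547 without SCR pool 1 and 1545 without SCR pool 2.

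A joint fit with the parental clones asked which genes separated the knockout clones from both controls. There 3347 of 14497 genes were called with all 3 knockout clones outside all 5 control libraries (23.1%), 1186 higher (8.18%) and 2161 lower (14.9%). Taken singly in that fit, knockout against parental gave 3522 calls (24.3%, with 8.68% higher and 15.6% lower) and knockout against SCR 3633 (25.1%, with 8.94% higher and 16.1% lower). Both contrasts share the knockout clones. Between the controls, the SCR pools differed from the parental clones in 1294 genes (8.93%), 654 higher in SCR (4.51%) and 640 lower (4.41%). That count fell to 131 without SCR pool 1, to 51 without SCR pool 2, to 258 without parental clone 2, to 640 without knockout clone 1 and to 828 without knockout clone 3. Whatever their p-value, 4055 of the 14497 genes (28%) had the knockout clones outside all 5 controls. Of the 4072 genes called between the knockout clones and the SCR pools, 2548 did, 915 higher and 1633 lower. In 1070 others, 372 higher and 698 lower in the knockout clones, the SCR pools lay outside the range of all 6 clones while knockout and parental clones overlapped.

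The largest changes were ranked among called genes with a mean of at least 2 FPKM in the higher group. Entries named after sequenced DNA clones or LINC numbers were passed over. Over all tested genes the log2 fold change ran from -4.565 to 5.566. All 12 of the largest rises so ranked had the knockout clones above all 5 controls. PAGE5 (ENSG00000158639), an X-linked cancer-testis antigen gene, was at 72.1, 67.7 and 72.7 FPKM in the knockout clones, against 0.460 and 0.573 FPKM in the SCR pools (log2 fold change 5.57, SE 0.07). It reached 1 FPKM in knockout clones alone, and with no filter its adjusted p was 0.00023. The parental clones held 0.387, 1.52 and 1.17 FPKM. FN1, which encodes fibronectin, rose to 110, 89.9 and 110 FPKM in the knockout clones, against 19.5 and 23.4 FPKM in the SCR pools (log2 fold change 2.22, adjusted p = 0.000961). HECW2, a ubiquitin ligase gene, held 20.2, 17.9 and 23.1 FPKM in the knockout clones and 2.07 and 1.75 FPKM in the SCR pools (log2 fold change 2.87, adjusted p = 0.00064). CPZ, which encodes a secreted carboxypeptidase, rose by 2.76 on the log2 scale (adjusted p = 0.000946) and the co-chaperone gene DNAJC12 by 2.20 (adjusted p = 0.00188). HBB, the adult beta globin gene, which K562 cells express only weakly, stood at 23.7, 33.9 and 22.997 FPKM in the knockout clones, 3.53 and 4.79 FPKM in the SCR pools and 3.49, 5.58 and 11.8 FPKM in the parental clones (log2 fold change over SCR 2.42, adjusted p = 0.0023). AFP, the fetal serum protein gene, varied widely among the clones, with 17.6, 2.92 and 6.56 FPKM in the knockout clones against 0.552 and 0.322 FPKM in the SCR pools (log2 fold change 2.52). It reached 1 FPKM in knockout clones alone, and with no filter it was not called (adjusted p = 0.0929).

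**Figure D1:**
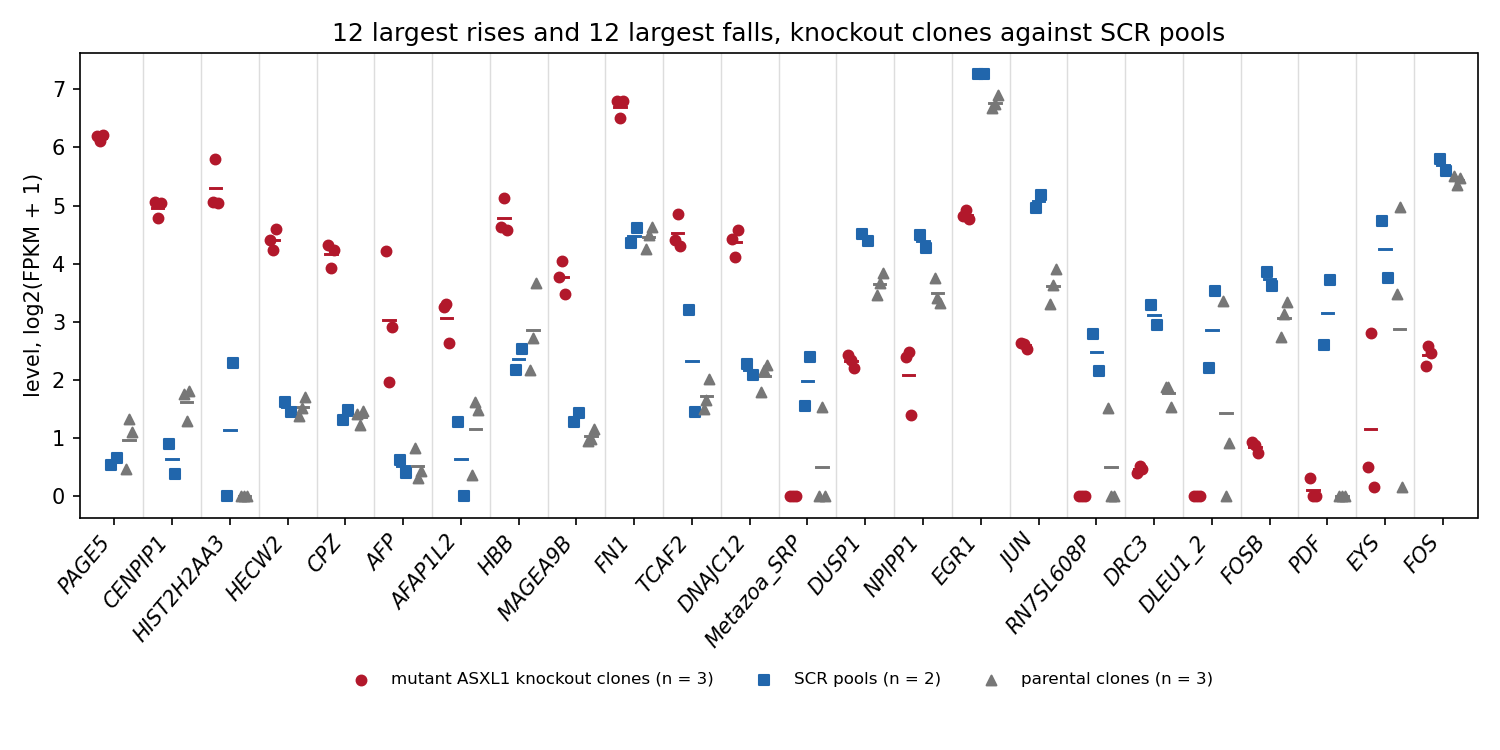
Levels as log2(FPKM + 1) of the 12 named genes that rose most and the 12 that fell most in the mutant ASXL1 knockout clones against the SCR pools; each point is 1 library and each short bar a group mean. In all 12 rises the red knockout points lie above every control point, from PAGE5 (log2 fold change 5.57) to DNAJC12 (2.20), while in 5 of the 12 falls some parental clones reach down to the knockout clones.

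Several of these rises concern genes with near-identical copies. HIST2H2AA3, a histone H2A gene, held 32.5, 54.4 and 32.0 FPKM in the knockout clones and 0 and 3.91 FPKM in the SCR pools, while its copy HIST2H2AA4 held 179, 199 and 145 FPKM in the knockout clones and 397 and 371 FPKM in the SCR pools. The sum of both was 212, 253 and 177 FPKM in the knockout clones, 397 and 375 FPKM in the SCR pools and 310, 391 and 502 FPKM in the parental clones, so the pair together was lower where HIST2H2AA3 was higher. The cancer-testis gene MAGEA9B rose with its copy MAGEA9 listed near 0: their sum was 12.7, 15.4 and 10.4 FPKM in the knockout clones and 1.44 and 1.71 FPKM in the SCR pools. CENPIP1, a pseudogene of the centromere protein gene CENPI, held 32.4, 26.4 and 32.1 FPKM in the knockout clones and 0.869 and 0.312 FPKM in the SCR pools. CENPI itself averaged 4.45 ± 0.139 FPKM in the knockout clones (SD, n = 3) and 6.35 ± 0.921 FPKM in the SCR pools (SD, n = 2). How reads shared between such copies were counted is not given in the sources used here.

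Of the 12 largest falls, ranked with the same limits, 7 had the knockout clones below all 5 controls. FOS, FOSB, JUN and EGR1 are described with the immediate early genes, and the MAP kinase phosphatase gene DUSP1 beside them. DRC3, a gene of the ciliary dynein regulatory complex, was at 0.324, 0.430 and 0.390 FPKM in the knockout clones, 8.82 and 6.73 FPKM in the SCR pools and 2.70, 2.68 and 1.92 FPKM in the parental clones (log2 fold change against SCR -2.66). DRC3 reached 1 FPKM in the SCR pools alone, and with no filter its adjusted p was 0.00802. The pseudogene NPIPP1 fell by 2.29 on the log2 scale (adjusted p = 0.00745) and was also below both controls. PDF, the mitochondrial peptide deformylase gene, was listed at 0.248, 0 and 0 FPKM in the knockout clones and 5.04 and 12.2 FPKM in the SCR pools, but at 0 in all 3 parental clones. PDF overlaps COG8 on chromosome 16, and the sum of PDF and both COG8 entries was 33.7, 32.1 and 31.6 FPKM in the knockout clones and 30.4 and 33.7 FPKM in the SCR pools. EYS, a photoreceptor gene, spread over 0.429, 6.01 and 0.114 FPKM in the knockout clones, 25.7 and 12.6 FPKM in the SCR pools and 10.2, 30.6 and 0.124 FPKM in the parental clones, and its call (adjusted p = 0.0379) was lost without knockout clone 1 (0.091), knockout clone 3 (0.0857), SCR pool 1 (0.163) or SCR pool 2 (0.0884). DLEU1_2, RN7SL608P and the Metazoa_SRP entry of the same kind are short non-coding RNA entries that were listed at 0 in all 3 knockout clones. They and PDF reached 1 FPKM in the SCR pools alone. Another 10 tested RNAs without a poly(A) tail had a median log2 fold change of -1.02 with 0 called, and it was -0.15 without SCR pool 1 and -2.16 without SCR pool 2. RN7SK, for example, held 117, 44.4 and 42.5 FPKM in the knockout clones and 246 and 53.1 FPKM in the SCR pools, and its fitted change of -0.91 was 0.18 without SCR pool 1.

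Immediate early genes are switched on within minutes by growth factor and kinase signals, largely through the serum response factor and CREB or ATF proteins already on their promoters, and their products include the AP-1 subunits FOS and JUN. Of 21 tested members, 14 fell and 3 rose in the knockout clones against the SCR pools, where 18.7% and 10.4% of all tested genes did. The median log2 fold change was -0.74 against -0.07 over all tested genes, and -0.31 with no filter on level, which adds members near 0 FPKM. FOS (ENSG00000170345, chromosome 14, 75278774 to 75282230) was at 3.75, 4.97 and 4.53 FPKM in the knockout clones, against 54.9 and 47.3 FPKM in the SCR pools (log2 fold change -3.27, SE 0.12, adjusted p = 0.000564). The parental clones held 44.8, 40.002 and 43.3 FPKM of FOS, near the SCR pools. The zinc finger factor gene EGR1 stood at 27.4, 29.4 and 26.3 FPKM in the knockout clones and 152 and 151 FPKM in the SCR pools (log2 fold change -2.42, SE 0.06, adjusted p = 0.000158), with 101 to 119 FPKM in the parental clones. FOSB, a further AP-1 gene, held 0.915, 0.842 and 0.684 FPKM in the knockout clones, 13.4 and 11.3 FPKM in the SCR pools and 5.67, 7.83 and 9.15 FPKM in the parental clones (log2 fold change against SCR -2.88). FOSB, counted among the 14, reached 1 FPKM in the SCR pools alone, and with no filter its adjusted p was 0.00763.

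In JUN, DUSP1 and BTG2, as in EGR1 (0.49, adjusted p = 0.0152), the SCR pools also stood above the parental clones, so the fall was larger against SCR. JUN was at 5.24, 5.16 and 4.78 FPKM in the knockout clones, 30.2 and 35.2 FPKM in the SCR pools and 8.86, 11.4 and 13.9 FPKM in the parental clones. It fell by 2.47 on the log2 scale against SCR (adjusted p = 0.000564), and SCR exceeded parental by 1.46 (adjusted p = 0.005). DUSP1, a phosphatase gene that switches MAP kinases off, held 4.41, 4.09 and 3.63 FPKM in the knockout clones, 21.9 and 20.0 FPKM in the SCR pools and 9.96, 11.7 and 13.3 FPKM in the parental clones (log2 fold change against SCR -2.12, adjusted p = 0.000827). DUSP1 belongs to a separate list of MAP kinase feedback inhibitors. Of its 12 tested genes 3 rose and 2 fell (median 0.07), beside 10.4% and 18.7% of all tested genes. In that list SPRY4 rose by 0.91 against SCR (adjusted p = 0.00337) and ETV4 by 0.40 (adjusted p = 0.0063). BTG2, an antiproliferative p53 target, was high in the SCR pools alone, with 6.78, 7.28 and 6.03 FPKM in the knockout clones, 28.5 and 27.9 FPKM in the SCR pools and 5.33, 7.60 and 9.71 FPKM in the parental clones. ZFP36, which encodes an mRNA-decay protein, JUNB and JUND fell by 1.497, 1.00 and 1.02 on the log2 scale against SCR (adjusted p = 0.00188, 0.00614 and 0.00258) and were below all 5 controls. In the joint fit 7 immediate early genes were called below both controls and 3 above, and the median of their list against the parental clones was -0.17. Within GC deciles 11 members still fell and 4 rose. Not every member moved this way: KLF10 rose to 21.9, 19.8 and 23.3 FPKM in the knockout clones, against 11.2 and 10.1 FPKM in the SCR pools (log2 fold change 0.96, adjusted p = 0.00295), and IER3 rose by 1.00 (adjusted p = 0.00214). MYC held 296, 303 and 302 FPKM in the knockout clones and 273 and 278 FPKM in the SCR pools, a log2 fold change of 0.12 (adjusted p = 0.0504) that passed with median-ratio scaling (0.20, adjusted p = 0.015).

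**Figure D2:**
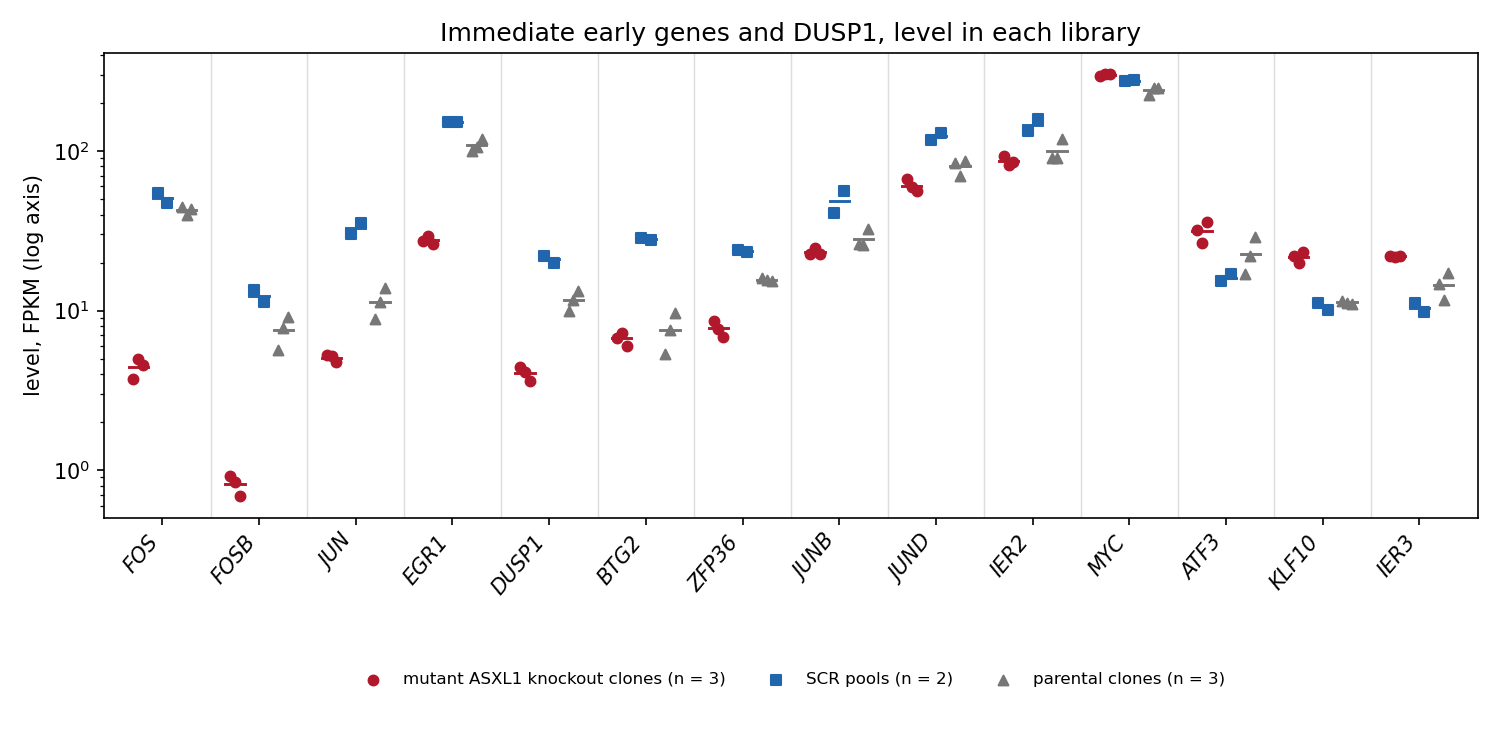
Levels in FPKM on a log axis of 13 immediate early genes and the MAP kinase phosphatase gene DUSP1 in each library, with mutant ASXL1 knockout clones in red, SCR pools in blue and parental clones in grey; short bars are group means. FOS, EGR1, FOSB, JUN and DUSP1 lie lowest in the knockout clones, BTG2 is high in the SCR pools alone, and KLF10 and IER3 lie highest in the knockout clones.

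The promoters of the 4 immediate early genes that fell most, and of DUSP1, are shown as the 250 bases before the RefSeq start, GRCh38.p14, read in the direction of the gene. They are FOS at chr14:75278578-75278827 (plus strand), FOSB at chr19:45467746-45467995 (plus), JUN at chr1:58784048-58784297 (minus), EGR1 at chr5:138465229-138465478 (plus) and DUSP1 at chr5:172771196-172771445 (minus). Capitals mark TGACG on either strand, the core of the site bound by CREB and ATF proteins, and the CArG box (10 letters), the site of the serum response factor. Both strands were searched and overlapping matches were kept.
FOS: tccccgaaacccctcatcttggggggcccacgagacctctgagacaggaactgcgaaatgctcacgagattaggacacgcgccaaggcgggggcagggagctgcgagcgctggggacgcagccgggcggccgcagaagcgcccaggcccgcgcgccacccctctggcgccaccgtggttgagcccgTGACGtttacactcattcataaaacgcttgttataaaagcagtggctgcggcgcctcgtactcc
FOSB: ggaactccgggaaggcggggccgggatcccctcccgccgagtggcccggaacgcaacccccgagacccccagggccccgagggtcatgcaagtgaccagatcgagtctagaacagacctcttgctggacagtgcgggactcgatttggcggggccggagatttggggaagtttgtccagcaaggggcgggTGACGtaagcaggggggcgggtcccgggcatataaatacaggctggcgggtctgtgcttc
JUN: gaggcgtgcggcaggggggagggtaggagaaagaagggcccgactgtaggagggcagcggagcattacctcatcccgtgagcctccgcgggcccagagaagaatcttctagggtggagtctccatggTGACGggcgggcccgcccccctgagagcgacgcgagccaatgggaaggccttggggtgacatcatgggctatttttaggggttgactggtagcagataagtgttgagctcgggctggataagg
EGR1: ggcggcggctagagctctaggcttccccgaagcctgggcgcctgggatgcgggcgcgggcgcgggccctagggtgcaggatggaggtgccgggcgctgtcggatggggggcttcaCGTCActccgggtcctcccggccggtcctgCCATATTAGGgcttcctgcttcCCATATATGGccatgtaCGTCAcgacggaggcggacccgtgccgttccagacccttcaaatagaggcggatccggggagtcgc
DUSP1: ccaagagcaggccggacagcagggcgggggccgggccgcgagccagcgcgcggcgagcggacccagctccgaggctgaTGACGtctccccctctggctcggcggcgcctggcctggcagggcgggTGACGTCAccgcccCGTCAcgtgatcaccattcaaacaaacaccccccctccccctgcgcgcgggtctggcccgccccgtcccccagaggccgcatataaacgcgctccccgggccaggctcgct

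All 5 promoters held TGACG, at 64 bases before the start in FOS, 60 in FOSB and 123 in JUN. The pair of CArG boxes in EGR1 began 105 and 83 bases before the start. A promoter was found for 14 of the 21 tested immediate early genes, and 9 of them (64.3%) held TGACG, against 30.9% of 9091 tested genes with a promoter and 21.2% of all 35116 promoters in the table. The CArG box was in 2 of the 14 (14.3%), 0.935% of the tested genes and 1.16% of all promoters. Other motifs were searched too. TGACGTCA, which contains TGACG, was in 1 of the 14 (7.14%) and 3.1% of the tested genes. GGGCGG was in 10 of the 14 (71.4%) and 68.2% of the tested genes, and TGATGNAA (N is any base) in 1 (7.14%) and 1.26%. These matches describe letters in a window and no binding was measured.

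Of 13 tested genes of haem synthesis and transport, 10 fell and 0 rose in the knockout clones, with a median log2 fold change of -0.48. Without SCR pool 1 or without SCR pool 2, 4 members fell, and 9 fell within GC deciles. The counts of this list and of those that follow stand beside 18.7% of all tested genes called lower and 10.4% called higher. Leaving out either SCR pool also lowered the share of calls over all tested genes, here and for the lists that follow. UROS and UROD encode successive enzymes of the pathway. UROS held 19.7, 21.1 and 19.0 FPKM in the knockout clones, 39.5 and 37.8 FPKM in the SCR pools and 34.5, 37.2 and 43.5 FPKM in the parental clones (log2 fold change against SCR -0.92, SE 0.07, adjusted p = 0.00196), and UROD fell by 0.58 (adjusted p = 0.0025). ALAS2, the erythroid enzyme that opens the pathway, averaged 23.2 FPKM in the knockout clones and 21.3 FPKM in the SCR pools, a log2 fold change of 0.11 that did not pass.

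Among 21 erythroid transcription factors and cofactors, 12 fell and 5 rose (median -0.31), and the joint fit called 10 members below and 4 above both controls. Within GC deciles 10 fell and 6 rose, with a median of -0.15. The rises were 3 without SCR pool 1 or knockout clone 3 and 2 without SCR pool 2. ZFPM1, the GATA1 cofactor, fell to 5.51, 5.97 and 4.85 FPKM in the knockout clones, against 16.4 and 15.8 FPKM in the SCR pools (log2 fold change -1.41, adjusted p = 0.00193). KLF1, an activator of red cell genes, held 85.2, 96.6 and 81.8 FPKM in the knockout clones, 164 and 163 FPKM in the SCR pools and 122, 114 and 115 FPKM in the parental clones (log2 fold change against SCR -0.89, adjusted p = 0.0025). GFI1B (-0.88, adjusted p = 0.00258), LMO2 (-0.91, adjusted p = 0.00281) and GATA1 (-0.48, adjusted p = 0.0032) fell too. The members that rose include SOX6 and BCL11A, known as repressors of fetal globin genes. SOX6 was at 3.04, 4.97 and 5.70 FPKM in the knockout clones and 0.675 and 0.573 FPKM in the SCR pools (log2 fold change 1.75), and BCL11A was at 2.23, 3.01 and 3.35 FPKM in the knockout clones and 1.44 and 1.32 FPKM in the SCR pools (0.69, adjusted p = 0.0293). SOX6 reached 1 FPKM in knockout clones alone in the 5 libraries, and with no filter its adjusted p was 0.0255. BCL11A lost its call without knockout clone 2 (adjusted p = 0.0674), knockout clone 3 (0.0739), SCR pool 1 (0.103) or SCR pool 2 (0.127).

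Of 27 red cell membrane and blood group genes, 14 fell and 5 rose (median -0.32), against 8 and 2 without SCR pool 1, 9 and 2 without SCR pool 2, and 3 rises without knockout clone 1 or clone 3. XK, a blood group transporter gene, rose, with 8.72, 8.49 and 8.71 FPKM in the knockout clones against 2.35 and 2.46 FPKM in the SCR pools (log2 fold change over SCR 1.501, adjusted p = 0.00114). SLC4A1, the band 3 anion exchanger gene, fell by 1.44 against SCR (adjusted p = 0.00295), yet its 1.95, 2.17 and 1.81 FPKM in the knockout clones lay within the 1.48 to 4.17 FPKM of the parental clones. EPOR, the erythropoietin receptor gene, fell to 6.60, 7.71 and 6.39 FPKM in the knockout clones, against 16.7 and 16.1 FPKM in the SCR pools (-1.14, adjusted p = 0.0025).

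The abundant globins gave no call with all 5 libraries. The alpha globin copies HBA1 and HBA2 summed to 3448, 4421 and 2956 FPKM in the knockout clones and 4341 and 4133 FPKM in the SCR pools, and the gamma globin copies HBG1 and HBG2 to 9918, 12572 and 8582 FPKM in the knockout clones and 13526 and 12772 FPKM in the SCR pools. The parental clones overlapped both groups, with 10213 to 19206 FPKM of gamma globin, and the adjusted p of these 4 genes ran from 0.13 to 0.333. Knockout clone 2 was the highest of the knockout clones for each of them, and without it all 4 were called lower, with log2 fold changes of -0.43 for HBA1, -0.34 for HBA2, -0.41 for HBG1 and -0.51 for HBG2 (adjusted p = 0.0239, 0.0457, 0.0338 and 0.0153). AHSP, the chaperone of free alpha globin, fell to 6.54, 13.2 and 13.0 FPKM in the knockout clones, against 50.9 and 32.6 FPKM in the SCR pools (log2 fold change -1.87, adjusted p = 0.0119), although its call was lost without SCR pool 1 (adjusted p = 0.064). The mitochondrial iron importer gene SLC25A37 fell by 1.20 (adjusted p = 0.000946) and the iron exporter gene SLC40A1 rose by 0.49 (adjusted p = 0.0204, but 0.0925 without SCR pool 1 and 0.0533 without knockout clone 3).

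Respiratory chain transcripts were lower in the knockout clones whichever genome encodes them. Of 73 tested nuclear genes for subunits of the chain and ATP synthase, 50 fell and 1 rose, with a median of -0.33, and the joint fit called 50 below and 2 above both controls. Without SCR pool 1 there were 24 falls and without SCR pool 2 there were 25, and 42 fell within GC deciles. ATP5I, an ATP synthase subunit gene, stood at 227, 239 and 221 FPKM in the knockout clones, 393 and 399 FPKM in the SCR pools and 333, 392 and 416 FPKM in the parental clones (log2 fold change against SCR -0.79, SE 0.05, adjusted p = 0.00114). COX6C of complex IV held 303, 332 and 316 FPKM in the knockout clones and 462 and 466 FPKM in the SCR pools (-0.55, adjusted p = 0.00258), and UQCRB of complex III fell by 0.54 (adjusted p = 0.00203). Of the 13 mitochondrially encoded protein genes 11 fell (median -0.51), and the joint fit called 11 below both controls. MT-ND3 of complex I fell by 0.77 on the log2 scale (adjusted p = 0.00311). The fitted change of MT-ND5, -0.06, did not pass. It was 0.01 with median-ratio scaling and 0.03 with the per-library factor undone. That of MT-ND6, -0.15, did not pass either (adjusted p = 0.057). MT-ND6 passed without knockout clone 2 (-0.18, adjusted p = 0.0448), with a 5 FPKM filter (0.0454) and with a robust variance model (0.0486).

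Sterol and fatty acid synthesis genes were lower as well. They are driven by SREBP factors, which the protein of INSIG1 holds back. Of 34 tested genes 20 fell and 0 rose (median -0.40), and 16 fell and 2 rose within GC deciles. Without SCR pool 1 there were 11 falls and without SCR pool 2 there were 13. INSIG1 itself was at 23.2, 26.3 and 19.7 FPKM in the knockout clones, 56.2 and 60.6 FPKM in the SCR pools and 32.4, 38.6 and 40.5 FPKM in the parental clones (log2 fold change against SCR -1.31, adjusted p = 0.00275). FASN, the fatty acid synthase gene, held 132, 146 and 126 FPKM in the knockout clones, 259 and 253 FPKM in the SCR pools and 162, 180 and 213 FPKM in the parental clones (-0.93, adjusted p = 0.00214). MSMO1, a sterol demethylation enzyme gene, fell by 1.26 on the log2 scale (adjusted p = 0.00253).

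**Figure D3:**
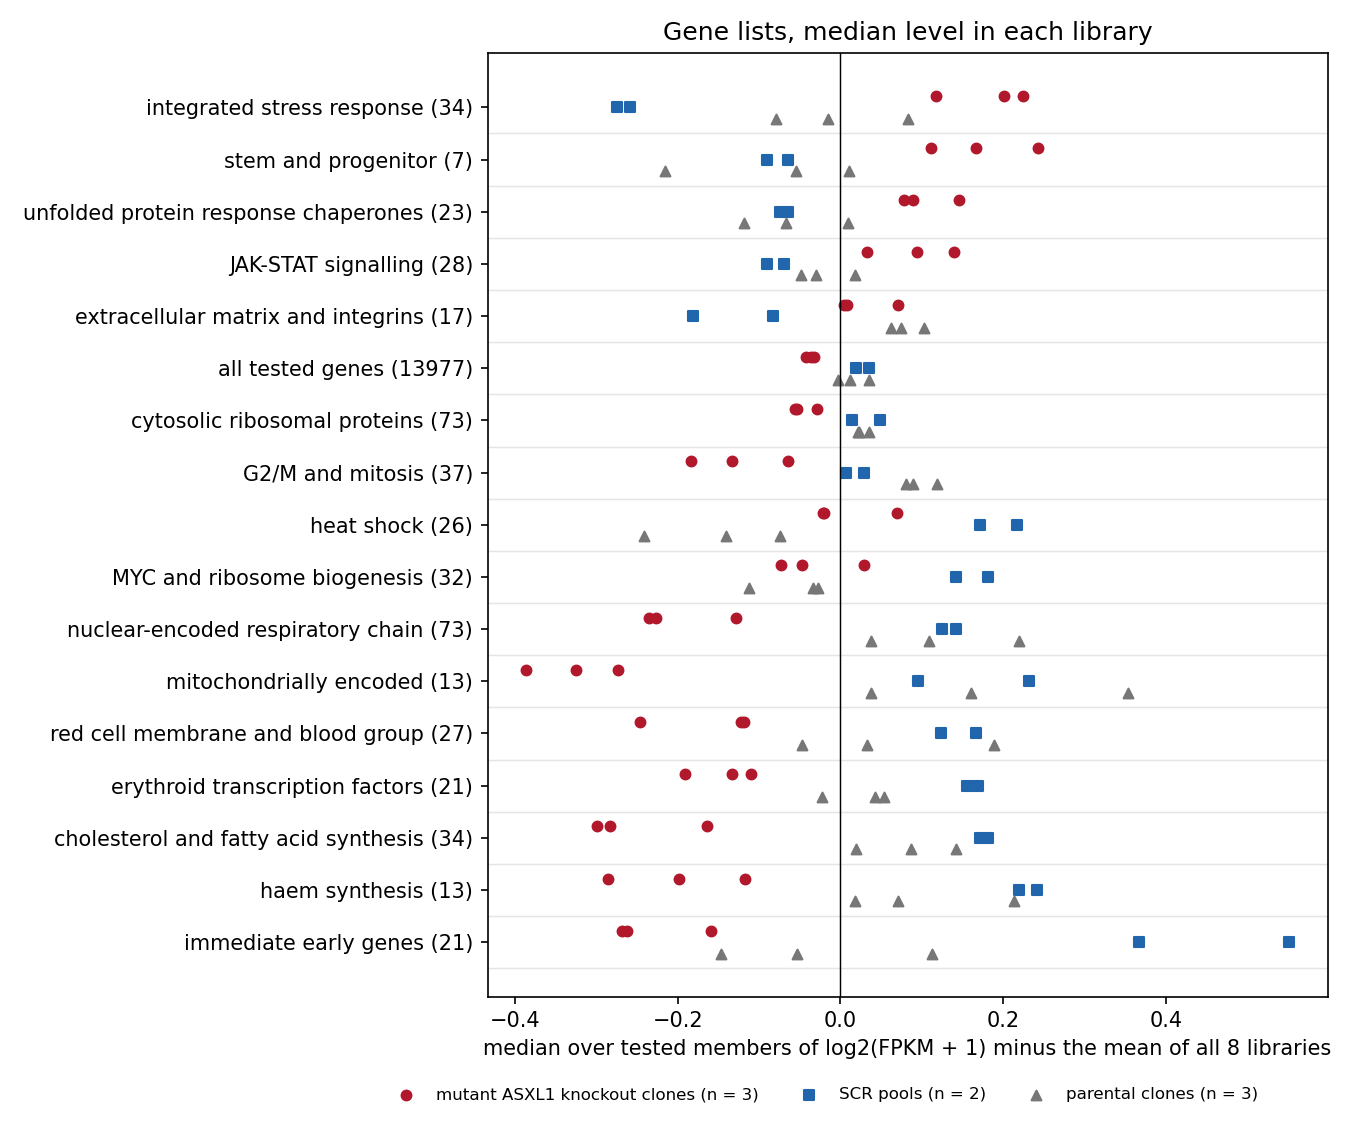
Median level of 16 gene lists and of all tested genes in each library, as log2(FPKM + 1) minus the mean of the 8 libraries, with the number of tested members in parentheses; knockout clones are red, SCR pools blue and parental clones grey. The knockout clones lie lowest for haem, sterol and respiratory chain genes and highest for the unfolded protein response chaperones, while for heat shock genes they lie between the SCR pools above and the parental clones below.

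Genes of the integrated stress response, in which phosphorylated eIF2 raises the translation of ATF4 and ATF4 then activates genes for amino acid supply, were higher in the knockout clones. Of 34 tested members 23 rose and 2 fell (median 0.38), 19 to 25 rose when 1 library was left out, and 27 rose within GC deciles. STC2, a secreted glycoprotein gene, stood at 29.96, 30.4 and 31.7 FPKM in the knockout clones, 9.32 and 9.10 FPKM in the SCR pools and 12.7, 15.6 and 15.1 FPKM in the parental clones (log2 fold change over SCR 1.63, SE 0.06, adjusted p = 0.000564). SESN2, an mTORC1 inhibitor gene, held 49.4, 42.4 and 50.4 FPKM in the knockout clones, 15.2 and 14.6 FPKM in the SCR pools and 23.4, 27.6 and 33.0 FPKM in the parental clones (1.60, adjusted p = 0.000961). TRIB3, a pseudokinase that feeds back on ATF4, rose by 0.97 (adjusted p = 0.00337) and DDIT3, which encodes CHOP, by 0.69 (adjusted p = 0.00337). The ATF4 transcript had a log2 fold change of -0.03 (adjusted p = 0.638), and of 0.04 with median-ratio scaling.

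The size of this response depended on the control, because over the same list the median log2 difference of SCR against parental was -0.25. In the joint fit 13 members were called above both controls and 0 below, and the median against the parental clones was 0.20. DDIT4, a further mTORC1 inhibitor gene, was at 591, 551 and 611 FPKM in the knockout clones and 231 and 230 FPKM in the SCR pools (log2 fold change 1.34, adjusted p = 0.000564), but the parental clones ran from 348 to 847 FPKM. CHAC1, which encodes a glutathione-degrading enzyme, held 53.7, 50.3 and 53.9 FPKM in the knockout clones, 20.8 and 22.7 FPKM in the SCR pools and 29.8, 53.2 and 84.3 FPKM in the parental clones. SLC7A11, the cystine transporter gene, rose by 1.20 against SCR (adjusted p = 0.00188) with the top parental clone in the range of the knockout clones. PPP1R15A and ATF5 fell against SCR, by 0.68 and 0.63 on the log2 scale.

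Chaperones and degradation genes of the endoplasmic reticulum rose in part, 11 of 23 against 2 that fell (median 0.12), and the joint fit called 10 above and 1 below both controls. Without SCR pool 1 there were 7 rises and without SCR pool 2 there were 6. PDIA6, a disulfide isomerase gene, held 165, 168 and 165 FPKM in the knockout clones, 121 and 121 FPKM in the SCR pools and 134 to 145 FPKM in the parental clones (log2 fold change over SCR 0.45, adjusted p = 0.00245). The stress sensor gene ATF6 rose by 0.52 (adjusted p = 0.00513) and SEL1L, of the degradation complex, by 0.95 (adjusted p = 0.0155, but 0.0781 without SCR pool 2). HSPA5, the main chaperone of the compartment, averaged 177 FPKM in the knockout clones and 163 FPKM in the SCR pools and was not called (log2 fold change 0.12, adjusted p = 0.0948), although it passed with median-ratio scaling (0.19, adjusted p = 0.0221).

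Heat shock genes gave opposite directions against the 2 controls. Of 26 tested members 14 fell and 2 rose against SCR (median -0.21), with 7 falls without SCR pool 1 and 4 without SCR pool 2, yet the joint fit called 0 members below both controls, and against the parental clones the median was 0.21. HSPA1A, the main inducible chaperone gene, was at 141, 165 and 136 FPKM in the knockout clones, 212 and 211 FPKM in the SCR pools and 83.3, 88.7 and 93.7 FPKM in the parental clones. Its log2 difference was -0.52 for knockout against SCR (adjusted p = 0.00971), 0.73 for knockout against parental (0.00105) and 1.25 for SCR against parental (0.00276), and the first lost its call without SCR pool 1 (0.055) or SCR pool 2 (0.0525). With its near-identical copy HSPA1B it summed to 230, 258 and 218 FPKM in the knockout clones, 358 and 354 FPKM in the SCR pools and 150, 158 and 163 FPKM in the parental clones, with no overlap between the 3 groups. DNAJA1, a co-chaperone gene, held 122, 135 and 123 FPKM in the knockout clones, 176 and 177 FPKM in the SCR pools and 99.3, 103 and 108 FPKM in the parental clones. HSPA9, the mitochondrial HSP70 gene, and HSPA6 rose against both controls, by 0.46 (adjusted p = 0.0027) and 1.13 (0.00417) over SCR. Genes for MYC function and ribosome biogenesis also depended on the control: 12 of 32 fell and 1 rose against SCR (median -0.18), with 7 falls without knockout clone 1 and 3 without either SCR pool, while the median against the parental clones was 0.05.

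**Figure D4:**
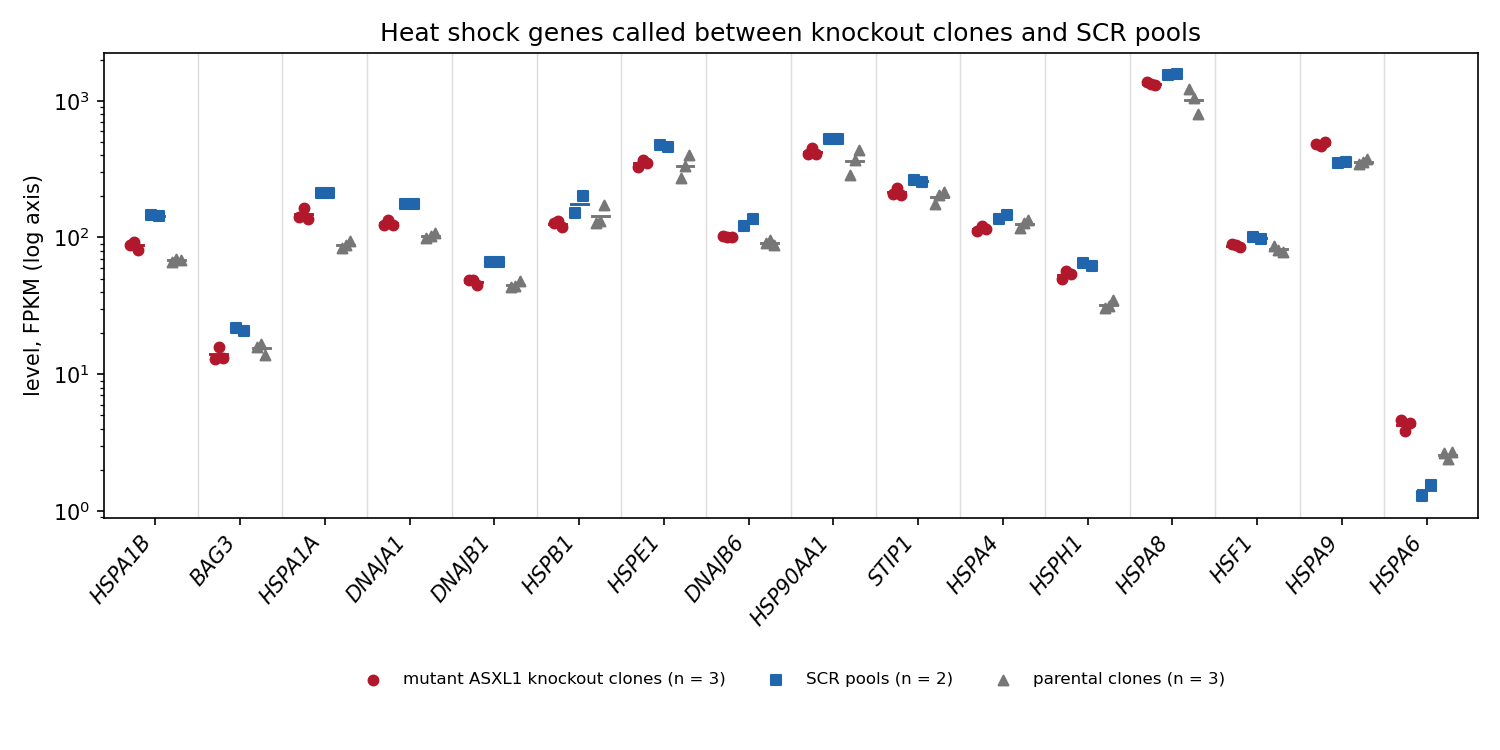
Levels in FPKM on a log axis of the 16 heat shock genes called between the mutant ASXL1 knockout clones (red) and the SCR pools (blue), with the parental clones in grey; short bars are group means. The 14 genes that fell against SCR lie at or above the parental clones or overlap them, as for HSPA1A, and HSPA9 and HSPA6 are highest in the knockout clones.

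Cytokine signalling through JAK kinases and STAT factors showed rises in receptor, factor and feedback genes. Of 28 tested members 10 rose and 5 fell (median 0.16), beside 10.4% and 18.7% of all tested genes. Without any 1 of the 5 libraries 3 fell and 8 or 9 rose, and the joint fit called 7 above and 4 below both controls. IL2RG, the shared interleukin receptor chain, held 63.8, 57.2 and 67.4 FPKM in the knockout clones, 25.5 and 24.5 FPKM in the SCR pools and 45.4, 42.8 and 38.7 FPKM in the parental clones (log2 fold change over SCR 1.29, adjusted p = 0.00127). CISH and SOCS2, targets and inhibitors of STAT5, rose by 0.98 (adjusted p = 0.00114) and 0.91 (0.0023) and were above all 5 controls. STAT5A was at 215, 198 and 219 FPKM in the knockout clones and 126 and 129 FPKM in the SCR pools (0.72, adjusted p = 0.00217), with 121 to 201 FPKM in the parental clones.

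Smaller lists gave single strong members, and their counts stand beside 10.4% of all tested genes called higher and 18.7% called lower. Calls over all tested genes also fell without knockout clone 1 (922 higher, 1640 lower) or knockout clone 3 (990 higher, 1724 lower). Of 7 stem and progenitor genes 4 rose and 1 fell. The fall was lost whichever knockout clone was left out, and 1 rose without knockout clone 1 or clone 3. Rises were also lost with either SCR pool left out. In the BCL2 family 5 of 14 rose and 3 fell, but 0 fell without knockout clone 1, knockout clone 3, SCR pool 1 or SCR pool 2, and the joint fit called 2 above and 1 below both controls. BCL2 itself, which blocks apoptosis, held 3.54, 2.74 and 3.71 FPKM in the knockout clones, 0.941 and 0.885 FPKM in the SCR pools and 0.753 to 0.896 FPKM in the parental clones (1.17). It reached 1 FPKM in knockout clones alone, and with no filter its adjusted p was 0.0233. Of 17 matrix and integrin genes 7 rose and 1 fell (median 0.26), with 4 rises without SCR pool 2. Against both controls 3 were called above and 3 below, and the median against the parental clones was -0.13. SPARC, a matrix glycoprotein gene, rose to 27.1, 28.0 and 28.1 FPKM in the knockout clones, against 8.19 and 9.03 FPKM in the SCR pools (1.58, adjusted p = 0.00064). ITGA5, which encodes part of the fibronectin receptor, rose over SCR by 0.56 (adjusted p = 0.00354) but lay among or below the 44.0 to 53.3 FPKM of the parental clones, with 43.8, 42.1 and 44.4 FPKM. Of 13 cancer-testis genes 5 were higher and 5 lower against SCR. There were 5 higher calls whichever library was left out, while the lower ones were 0 without SCR pool 1 or SCR pool 2 and 2 without knockout clone 1, and the joint fit called 5 above and 1 below both controls. Of the members called higher, 3 reached 1 FPKM in knockout clones alone, and of those called lower, GAGE12F reached it in the SCR pools alone. MAGEA1 held 3.47, 2.55 and 4.20 FPKM in the knockout clones and 0.348 and 0.432 FPKM in the SCR pools (1.65), and with no filter its adjusted p was 0.0189.

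Of 37 G2/M and mitosis genes 11 fell and 0 rose (median -0.14), with CENPF, a kinetochore gene, falling by 0.43 (adjusted p = 0.00661). Of 44 G1/S and replication genes 8 fell and 3 rose, near the background shares of 18.7% and 10.4%. Without SCR pool 1 there were 1 fall and 2 rises, without SCR pool 2 there were 2 and 1, without knockout clone 1 there were 4 and 1, without knockout clone 2 there were 10 and 1, and without knockout clone 3 there were 5 and 3. CDK6, a G1 kinase gene, was at 18.4, 16.6 and 18.0 FPKM in the knockout clones, against 9.35 and 11.1 FPKM in the SCR pools (log2 fold change 0.74, adjusted p = 0.00528). Of 25 replication-dependent histone genes 11 fell and 1 rose (median -0.40), the riser being HIST2H2AA3. For proteins of the cytosolic ribosome, 26 of 73 tested genes fell and 4 rose (median -0.08), but with the per-library factor undone 8 fell and 9 rose and the median was 0.01. Among 34 Polycomb genes 9 fell (26.5%, beside 18.7% of all tested genes) and 1 rose. PCGF5, of a variant repressive complex 1, stood at 12.1, 14.0 and 14.1 FPKM in the knockout clones, 24.9 and 24.4 FPKM in the SCR pools and 21.0 to 24.7 FPKM in the parental clones (-0.83, adjusted p = 0.00337). Leaving out SCR pool 1 left 2 falls in the G2/M list, 6 in histones, 6 in ribosomal proteins and 2 in Polycomb genes, leaving out SCR pool 2 left 4, 5, 10 and 3, leaving out knockout clone 1 left 7, 10, 9 and 5, and leaving out knockout clone 3 left 6, 9, 14 and 4. Over all tested genes the share that fell was then 6.69% without SCR pool 1, 6.9% without SCR pool 2, 11.9% without knockout clone 1 and 12.5% without knockout clone 3. Of 12 tested HOX genes 1 rose against SCR, HOXB9 by 0.31 (adjusted p = 0.0123), and 1 fell, HOXC13 by 0.61 (adjusted p = 0.025). HOXB9 held 96.1, 89.6 and 97.1 FPKM in the knockout clones and 77.7 and 73.6 FPKM in the SCR pools. The parental clones held 95.3, 96.2 and 95.8 FPKM of it, so the SCR pools alone stood apart. Its difference between knockout and parental clones was -0.02 (adjusted p = 0.761). HOXB9 was lost without SCR pool 2 (adjusted p = 0.0781), and HOXC13 without knockout clone 1 (0.0568), knockout clone 3 (0.0606), SCR pool 1 (0.121) or SCR pool 2 (0.134).

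The differences between knockout clones and SCR pools varied with the base composition and the length of the transcripts. A transcript was found for 13925 tested genes (99.6%). In the decile of genes with the lowest GC content (21.3% to 38.5%) the median log2 difference of knockout against SCR was 0.03, and 14.4% were called higher and 8.4% lower. In the decile with the highest GC content (61.5% to 73.9%) it was -0.20, with 6.96% higher and 30.4% lower. All 3 knockout clones shared the slope, with -0.19, -0.18 and -0.22 in the top decile, and against the parental clones the same deciles gave 0.01 and -0.15. The SCR pools against the parental clones ran from -0.01 to 0.04. By length of the longest transcript, the median was -0.16 in the second decile (863 to 1560 bases), with 6.46% higher and 26.8% lower, and 0.04 in the longest (6951 to 34526 bases), with 16.7% higher and 11% lower. Against the parental clones these deciles gave -0.16 and 0.04, and the SCR pools against the parental clones -0.004 and 0.002. By chromosome the lowest medians for knockout against SCR were on chromosome 19 (-0.17) and chromosome 16 (-0.14), and the highest on chromosome 13 (0.02). Runs of 50 neighbouring tested genes had medians from -0.47 to 0.24, the lowest on chromosome 1 from 1216908 to 3630127. The median GC content was 47.6% for nuclear respiratory chain genes, 51.9% for haem genes, 51.3% for sterol and fatty acid genes, 55.4% for immediate early genes and 52.5% for stress response genes, beside 48.6% for all tested genes. The median length was 1582 bases for nuclear respiratory chain genes, 784 for mitochondrially encoded and 789 for histone genes, beside 3075 bases for all tested genes. Scaling within GC deciles gave 3427 calls, which included 3000 of the 4072 calls made with the deposited values. Of 149 named genes with a call, many of them named for a large change or a small adjusted p, 5 lost it there. They were BAP1, FOXK1, the theta globin gene HBQ1, the DNA polymerase gene POLD1 and the keratin gene KRT18. What part transcript length had in the calls was not tested.

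**Figure D5:**
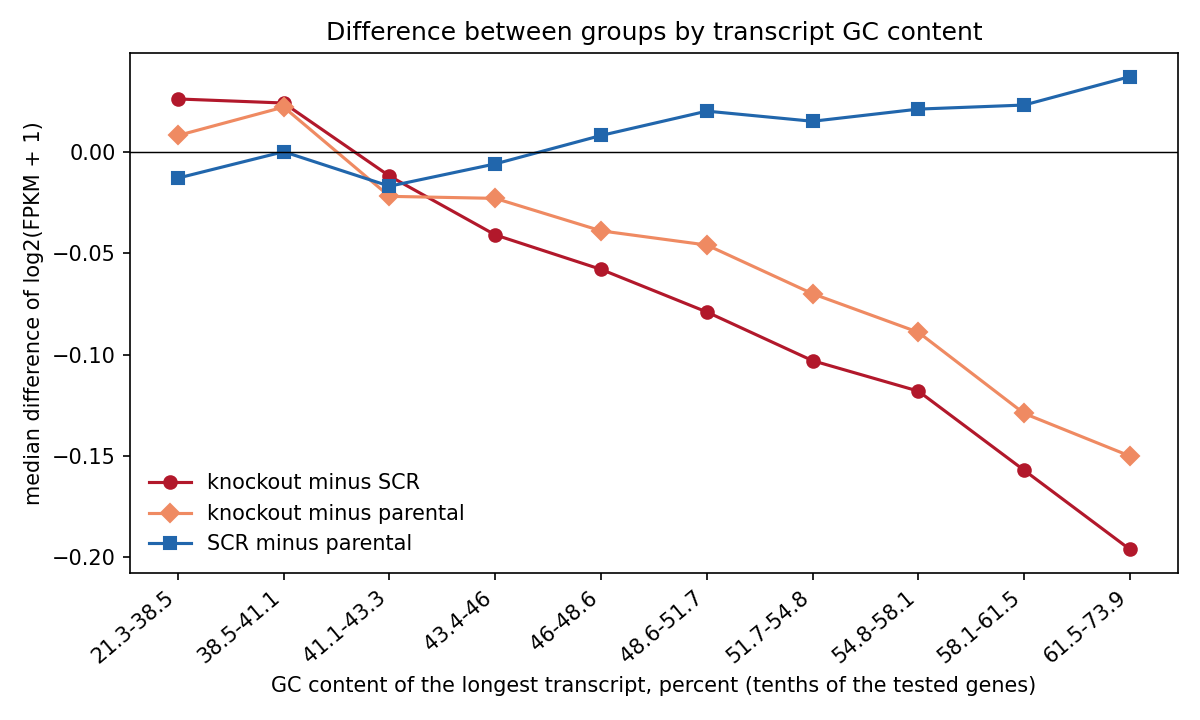
Median difference of log2(FPKM + 1) between groups for deciles of the tested genes ordered by GC content of the longest transcript, for knockout minus SCR (red), knockout minus parental (orange) and SCR minus parental (blue). The red line runs from 0.03 in the lowest decile to -0.20 in the highest, while the blue line stays between -0.02 and 0.04.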

How the data were processed

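Libraries were made from total RNA with a TruSeq kit and random hexamer primers, per the labels' protocols. The submitters' processing notes name TopHat, Bowtie, RSEM, Cufflinks and edgeR with GRCh38.p10, without versions. The values used are FPKM as deposited by the authors, 1 per gene and library, and whether counting used strand is not given in the sources used here. Depth is not given, so counting error is unknown. Low values up to 0.15 FPKM were whole multiples of one step per library (tolerance 0.0006 FPKM), and the steps differed between libraries by a factor, which one alternative undid.

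The 2 tables were joined by gene identifier. Genes with 1 FPKM or more in at least 2 of the libraries fitted were tested as log2(FPKM + 1), which understates changes of low genes, with limma 3.58.1 in R 4.3.3 (variance trend, two-sided, Benjamini-Hochberg adjusted p under 0.05). One fit held the 5 knockout and SCR libraries. A joint fit held 8, with the parental clones, and called a gene against both controls only where all 3 knockout clones lay outside all 5 control libraries. The fit was tested on simulated data with independent noise for each gene. These held no shift by transcript GC content, length or library, so the test cannot show how the fit handles such shifts. Genes were named by rule: the ASXL1 partners, the 12 largest changes in each direction, up to 3 called members of each of 37 lists, and 8 in each direction for the joint fit and for genes set by the SCR pools. The genes ranked by change had to be called, with a mean of at least 2 FPKM in the higher group. Entries named after sequenced DNA clones or LINC numbers, Y-linked genes and XIST were passed over. A further set of list members was chosen after their values were seen. The comparison and the lists were chosen with earlier results of these data known. Sequences came from RefSeq promoters (GRCh38.p14) and GENCODE 29. Alternatives changed the filter, pseudocount, scaling, variance model and replicate block and left out each library. The per-library factor and the scaling within GC deciles were chosen after seeing the data.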

Additional observations from a re-analysis of the deposited data

How the results depend on the processing

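Without 1 library, 1545 to 3897 genes were called between knockout clones and SCR pools (603 to 1351 higher, 913 to 2546 lower), and 51 to 1469 between SCR pools and parental clones (24 to 776 higher, 27 to 693 lower). With no filter on low FPKM 1739 genes were lower in knockout than SCR, and SCR against parental gave 766 calls (415 higher, 351 lower). With no variance trend the last gave 858 (414 lower). With the per-library factor undone 1684 genes were lower against SCR and 1330 against both controls, and within GC deciles 1653 and 1362. With the factor undone, list medians were 0.25 for JAK-STAT genes, 0.20 for chaperones of the endoplasmic reticulum, -0.12 for heat shock, -0.10 for MYC and ribosome biogenesis and -0.06 for G2/M genes. Equal replicate numbers did not pair the libraries (r of deviations 0.06 and 0.01 for knockout with SCR). The fit with a replicate block called 1495 genes between knockout and SCR (592 higher, 903 lower) and 171 between SCR and parental (74 higher, 97 lower). Of 149 called genes with alternatives run, 110 kept the call under all of them, 39 lost it under at least 1 and 30 without 1 library. ASXL1 was lost with the block (adjusted p = 0.0628). Signs turned for 8 genes, none of them called. Without 1 library MBD5 ran from -0.019 to 0.411, MBD6 from -0.038 to 0.074, ALAS2 from -0.026 to 0.248, ATF4 from -0.085 to 0.017 and RN7SK from -2.009 to 0.185. The others were ATF4 (0.038) and MT-ND5 (0.009) with median-ratio scaling, ATF4 (0.054) and MT-ND5 (0.026) with the factor undone, and FOXK2 (0.034), ATF4 (0.102) and HBA2 (0.01) within GC deciles. The cause was not tested.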
